A study of Danio rerio with 4 samples.

Results

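The genes described here are known as markers of the 2 cell layers of a blood vessel. They were 8 genes listed by name, with earlier results of these data known. All 8 were found among the 29458 gene names of the deposited mRNA table. Of these, 4 are called vessel wall genes here: acta2, tagln and myh11a of smooth muscle and pdgfrb of pericytes. The other 4 are called endothelial genes: kdrl, cdh5, fli1a and tie1. These are names of groups only, and which cells of the follicle samples made the RNA was not tested. Whole ovarian follicles of 3-month-old zebrafish of the AB strain were sorted by size and morphology into pre-vitellogenic (PV) follicles and primary growth (PG) follicles, with no agent or genetic change in either group. Each stage gave 1 mRNA library and 1 small RNA library, so no difference has a replicate check and no p-value is given. How many fish and follicles entered a library, and whether ovarian tissue between follicles was removed, the sources used here do not say.

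Smooth muscle cells contract through bundles of actin and myosin, which acta2, tagln and myh11a help to build, while pericytes attach to small vessels through platelet-derived growth factor (PDGF) signals received by pdgfrb. Endothelial cells line the vessel and grow towards vascular endothelial growth factor (VEGF), received by kdrl. In the fish ovary the oocyte is wrapped by granulosa cells, and by a theca layer that holds stromal cells and capillaries. Smooth muscle actin can also be made by stromal cells that belong to no vessel, so acta2 alone does not name a cell type.

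The series follows the step from the primary growth stage, when the oocyte is small, to the pre-vitellogenic stage that comes before yolk uptake. As deposited, every one of the 8 genes had a higher value in the pre-vitellogenic library. So had 69.9% of the 14480 gene names that reached 1 FPKM in either library. Of the 8, only tie1 turned lower after centring, and tie1 and cdh5 after a length correction. The level of tie1 was only 0.0855 FPKM in PV and 0.0308 FPKM in PG. Their FPKM (fragments mapped to a transcript, scaled by its length and by the mapped fragments of the library) summed to 36.9 in the pre-vitellogenic library, against 7.19 FPKM in the primary growth library. The sum was thus 5.14-fold higher, made of a 5.93-fold ratio for the vessel wall genes (29.4 FPKM in PV against 4.97 FPKM in PG) and a 3.37-fold ratio for the endothelial genes (7.48 FPKM in PV against 2.22 FPKM in PG). Their joint share was small in whole follicles: the 8 together took 0.00607% of the summed FPKM in pre-vitellogenic and 0.000984% in primary growth follicles. In PV acta2, at 15.6 FPKM, lay above the median of all gene names tested, 14.2 FPKM, and the others below it. For comparison, 8 oocyte markers, such as zp3.2 of the egg coat (993 FPKM in PV and 3478 FPKM in PG), summed to 2912 FPKM in pre-vitellogenic and 8662 FPKM in primary growth follicles. Of these markers 6 were lower in PV and 2 higher. The higher ones were vasa (174 FPKM in PV and 79.4 FPKM in PG) and gdf9 (62.2 FPKM in PV and 56.4 FPKM in PG). In such bulk RNA a lower number of cells of a type and less RNA per cell cannot be told apart.

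**Figure D1:**
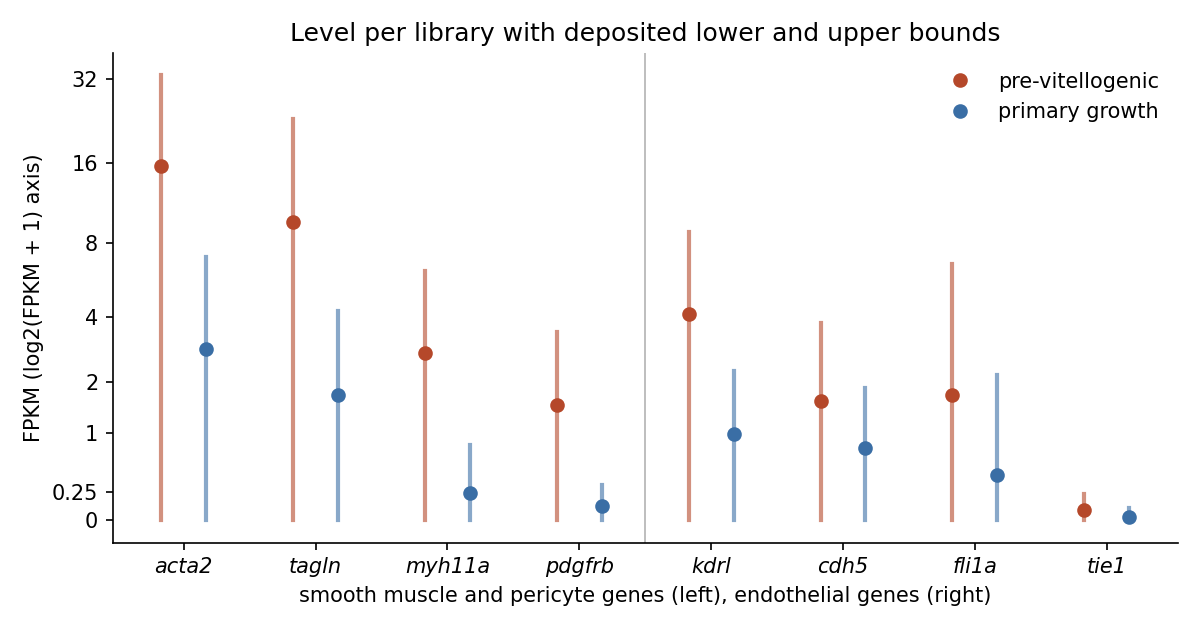
Level of each gene in the pre-vitellogenic library (red) and the primary growth library (blue), on a log2(FPKM + 1) axis, with lines from the deposited lower to the upper bound. All 8 points are higher in the pre-vitellogenic library, as are 69.9% of all gene names tested. The lines of all 8 genes start at 0 and overlap.

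Differences are given as log2 of pre-vitellogenic over primary growth after adding 1 FPKM to both, a scale that understates the difference of low genes. A gene was called at a 2-fold difference on that scale if it reached 1 FPKM in the higher library. By this rule 5 of the 7 genes that reached 1 FPKM were higher and 0 were lower, with a median difference of 1.37, or 1.26 over all 8. Among all 14480 gene names at that level, 29.1% were called higher and 6.53% lower, and the median difference was 0.50. The count is a description, because 5 of the 7 reached 1 FPKM in the pre-vitellogenic library only. Of the 1864 gene names that did likewise, 56.0% were called higher, against 26.3% of those that reached it in both. The counts of the lists below have the same limit, since these too hold genes that reached 1 FPKM in PV only. The deposited bounds were wide. All 16 lower bounds of the 8 genes were 0, and the bounds of both libraries overlapped for each of the 8. A lower bound of 0 in both libraries was common, found for 77.9% of all gene names tested.

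As deposited, the contractile genes acta2, tagln and myh11a had the largest differences of the group on this scale. The smooth muscle actin gene acta2 (ENSDARG00000045180, Zv9 chromosome 12, 18167911 to 18183279, forward strand) was at 15.6 FPKM in pre-vitellogenic follicles, with an upper bound of 33.0, and at 2.90 FPKM in primary growth follicles, with an upper bound of 7.05. This is a 5.38-fold ratio and a difference of 2.09. It was the most abundant of the 8 at both stages, at percentile 76.5 of all gene names in the pre-vitellogenic library and 66.0 in the primary growth library. One protein-coding transcript of 1572 bases carried 99.97% of its FPKM in pre-vitellogenic and 99.94% in primary growth follicles.

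Transgelin, encoded by tagln (ENSDARG00000045408, chromosome 15, 542638 to 550075, reverse strand), is a small protein that binds actin filaments in smooth muscle. Its level was 9.61 FPKM in pre-vitellogenic and 1.70 FPKM in primary growth follicles, with upper bounds of 23.1 in PV and 4.24 in PG, a 5.64-fold ratio and a difference of 1.97. The ratio was close to that of acta2, although the transcript has only 773 bases.

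The smooth muscle myosin heavy chain gene myh11a (ENSDARG00000009782, chromosome 6, 9215345 to 9296338, forward strand) was at 2.75 FPKM in pre-vitellogenic and 0.240 FPKM in primary growth follicles, with upper bounds of 6.20 in PV and 0.816 in PG. The ratio of 11.5 was larger than those of acta2 and tagln, and the difference of 1.60 was smaller, since the added 1 FPKM weighs more on a low value. All its FPKM came from the transcript of 7086 bases, and a second one of 531 bases was listed at 0 in both libraries.

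The PDGF receptor gene pdgfrb (ENSDARG00000057345, chromosome 14, 3463494 to 3495433, forward strand) had the largest ratio of the 8, 12.1, and a difference of 1.15. It was at 1.49 FPKM in pre-vitellogenic and 0.123 FPKM in primary growth follicles, with upper bounds of 3.44 in PV and 0.327 in PG.

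Among the endothelial genes only the VEGF receptor gene kdrl (ENSDARG00000015815, chromosome 14, 33838843 to 33899405, reverse strand) passed the 2-fold rule. It was at 4.13 FPKM in pre-vitellogenic and 0.981 FPKM in primary growth follicles, with upper bounds of 8.83 in PV and 2.25 in PG, a 4.21-fold ratio and a difference of 1.37. It was the most abundant endothelial member, and ranked below only acta2 and tagln, at both stages.

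The gene cdh5 (ENSDARG00000075549, chromosome 7, 45433470 to 45486203, forward strand) encodes VE-cadherin, which joins endothelial cells to each other. It was at 1.57 FPKM in pre-vitellogenic and 0.775 FPKM in primary growth follicles, with upper bounds of 3.77 in PV and 1.86 in PG. The ratio of 2.02 gave a difference of 0.53 and no call. A neighbouring gene on the same strand, BEAN1, overlaps its span and was listed at 0 in both libraries.

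The ETS transcription factor gene fli1a (ENSDARG00000054632, chromosome 18, 46987627 to 47051487, forward strand) was at 1.70 FPKM in pre-vitellogenic and 0.434 FPKM in primary growth follicles, with upper bounds of 6.61 in PV and 2.16 in PG. Its ratio was 3.91 and its difference 0.91, short of the mark. The sum hides a split between its 4 transcripts. The longest, of 2973 bases, was at 1.27 FPKM in PV and 0.0567 FPKM in PG, which was 74.5% of the gene's FPKM in pre-vitellogenic and 13.0% in primary growth follicles. A transcript of 601 bases was at 0.434 FPKM in pre-vitellogenic and 0.297 FPKM in primary growth follicles, with upper bounds of 3.09 in PV and 1.16 in PG, so this division of reads is poorly fixed. With the longest transcript alone the difference passed the mark.

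The receptor gene tie1 (ENSDARG00000004105, chromosome 6, 33681319 to 33706524, reverse strand), whose product modulates angiopoietin signals, was close to 0 at both stages. It was at 0.0855 FPKM in pre-vitellogenic and 0.0308 FPKM in primary growth follicles, with upper bounds of 0.229 in PV and 0.102 in PG, and it alone missed 1 FPKM in both. Its ratio of 2.78 rests on values near 0, and the difference was 0.07.

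In falling order the pre-vitellogenic levels ran acta2, tagln, kdrl, myh11a, fli1a, cdh5, pdgfrb and tie1. In primary growth follicles the order was acta2, tagln, kdrl, cdh5, fli1a, myh11a, pdgfrb and tie1, so the place of myh11a and cdh5 differed between stages. With all lower bounds at 0, no neighbours in either order were separated by their bounds. The vessel wall genes summed to 3.93 times the endothelial genes in pre-vitellogenic follicles and 2.24 times in primary growth follicles, in FPKM, which is a level per length.

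Differences in these libraries went with transcript length. All gene names tested were divided into 10 bins of equal size by length. The genes of the longest bin, around 5106 bases, had a median difference of 1.20, and 61.9% of them were called higher. For the shortest genes, around 483 bases, these were -0.21 and 19.8%. Several of the vessel genes are long: kdrl with 5389 bases, tie1 with 4348 and myh11a with 7086 all lie in the longest bin.

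Set against the median of its own bin, tagln was higher by 2.14 and acta2 by 1.76. The genes myh11a, pdgfrb, fli1a and kdrl stood only 0.40, 0.33, 0.27 and 0.17 above theirs, while cdh5 (-0.53) and tie1 (-1.12) stood below. Since tie1 was under 1 FPKM at both stages, the added 1 FPKM held its difference at 0.07 before this step. With the bin median subtracted, 2 of the 7 genes were called higher, acta2 and tagln, against 12.1% of all gene names. With all differences centred instead on 0.42, the median of genes that reached 1 FPKM at both stages, 3 were called, acta2, tagln and myh11a, against 15.2% of all gene names, and tie1 was at -0.34. The part that length has in the higher values of the long genes was not tested.

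**Figure D2:**
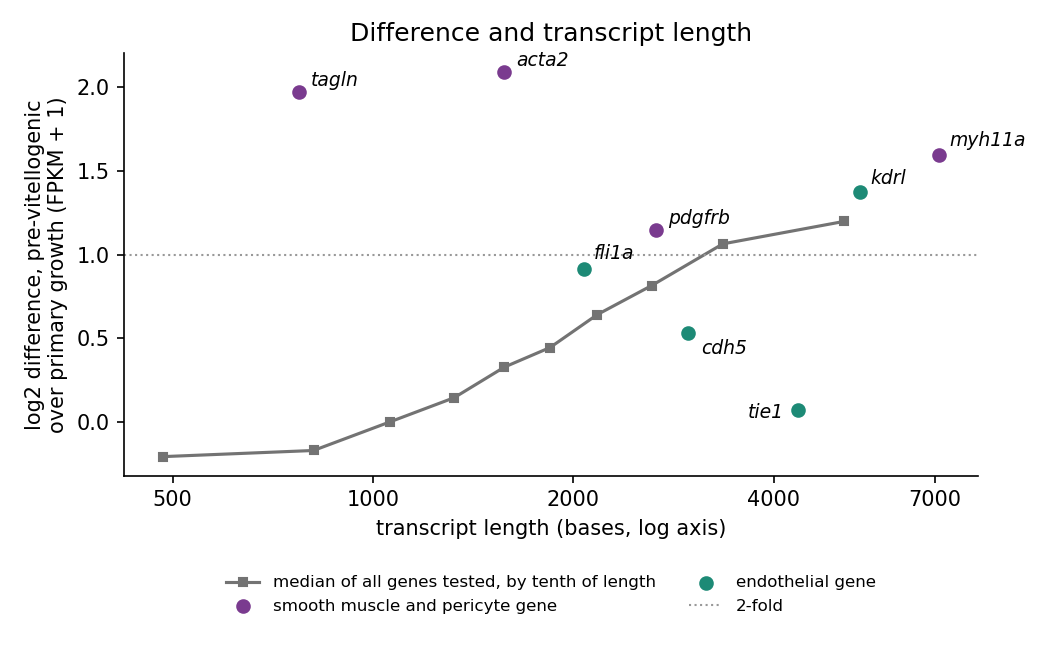
Difference of each gene (vertical axis, log2 of pre-vitellogenic over primary growth) against its transcript length in bases (log axis), with the medians of all genes tested in 10 bins of length as a grey line. The short genes tagln and acta2 lie 2.14 and 1.76 above the line, while myh11a and kdrl lie near it and cdh5 and tie1 below it.

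Relatives of the 8 genes did not all share their direction. The cytoplasmic actins were far more abundant than acta2 and lower in pre-vitellogenic follicles, with actb1 at 999 FPKM in PV and 2359 FPKM in PG (difference -1.24) and actb2 at 854 FPKM in PV and 1438 FPKM in PG (difference -0.75). The skeletal muscle actin genes acta1b, at 2.82 FPKM in PV and 2.59 FPKM in PG, and acta1a, at 1.13 FPKM in PV and 0.499 FPKM in PG, did not pass the rule. Actin genes are alike in sequence, so the division of reads among them is uncertain. The transgelin relative tagln2 was at 4.71 FPKM in pre-vitellogenic and 1.93 FPKM in primary growth follicles, a difference of 0.96. Of its relatives, tagln3b was at 0.284 FPKM in PV and 0.0921 FPKM in PG, and tagln3a, like the cardiac actin gene actc1a, was listed at 0 in both libraries.

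Myosin heavy chains differed by class. The second smooth muscle gene, myh11b, was near 0 at both stages, at 0.0771 FPKM in PV and 0.0318 FPKM in PG. The non-muscle myosins, which drive cortical contraction in most cells, were more abundant than myh11a. Of these, myh9a was at 217 FPKM in pre-vitellogenic and 108 FPKM in primary growth follicles, myh10 at 35.4 FPKM in PV and 9.28 FPKM in PG and myh9b at 15.6 FPKM in PV and 6.13 FPKM in PG. All 3 passed the rule as deposited, and none did after the length bin median was subtracted. The other VEGF receptor genes were under 1 FPKM or near it: kdr at 0.633 FPKM in PV and 0.0830 FPKM in PG, flt1 at 0.228 FPKM in PV and 0.0325 FPKM in PG, and flt4, a receptor of lymphatic and venous endothelium, at 0.798 FPKM in PV and 1.07 FPKM in PG. The angiopoietin receptor gene tek, the closest relative of tie1, was at 0.161 FPKM in PV and 0.0857 FPKM in PG. The ETS gene erg was at 2.29 FPKM in pre-vitellogenic and 1.45 FPKM in primary growth follicles, and fli1b at 0.279 FPKM in pre-vitellogenic follicles and listed at 0 in primary growth follicles.

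A wider list of 39 smooth muscle genes gave 35 in the table and 19 at 1 FPKM or more, of which 8 (42.1%) were called higher and 0 lower (median 0.79). Without the members it was 5 of 16, near the share of all genes. Those were the smoothelin gene smtnb (17.7 FPKM in PV and 1.32 FPKM in PG, difference 3.01), the myosin light chain gene myl9b (11.5 FPKM in PV and 2.44 FPKM in PG, difference 1.86), the serum response factor gene srfa (difference 1.19), the fibrillin gene fbn1 (1.11) and the tropomyosin gene tpm2 (1.04). After subtraction of the length bin median, smtnb and myl9b still passed the rule. The most abundant genes of the list, which many cell types use, were close to level. The creatine kinase gene ckbb was at 1150 FPKM in pre-vitellogenic and 984 FPKM in primary growth follicles, tpm1 at 143.2 FPKM in PV and 178.5 FPKM in PG, myl6 at 61.9 FPKM in PV and 54.7 FPKM in PG and csrp1a at 59.9 FPKM in PV and 40.4 FPKM in PG. Paralogs of smooth muscle genes differed in level. In the calponin family cnn1b was at 5.79 FPKM in PV and 3.40 FPKM in PG, the light chain gene myl9a was at 8.40 FPKM in PV and 5.38 FPKM in PG, and the caldesmon gene cald1a was at 3.70 FPKM in PV and 1.91 FPKM in PG, none past the rule. Near 0 at both stages were some others, chosen after their values were seen. Values of cnn1a were 0.0577 FPKM in PV and listed at 0 in PG, those of the desmin gene desma 0.0255 FPKM in PV and listed at 0 in PG, and those of the elastin gene elna 0.0508 FPKM in PV and listed at 0 in PG. Their paralogs went the other way, desmb listed at 0 in PV and at 0.0330 FPKM in PG, and elnb at 0.0343 FPKM in PV and 0.0727 FPKM in PG. Of the 35 genes found, 28 were higher in PV by value and 5 lower. The lower ones were tpm1, desmb, elnb, smtna and fhl1a.

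Of 26 pericyte and PDGF genes 25 were in the table and 10 reached 1 FPKM, 4 of them called higher (40%, against 29.1% of all genes tested) and 2 lower (median 0.74). Without pdgfrb it was 3 of 9. All those called higher, pdgfrb, pdgfra, pdgfc and notch3, reached 1 FPKM in PV only. Among all gene names that did likewise, 56.0% were called higher. With the length bin median subtracted 2 of the 10 were higher (against 12.1% of all gene names) and 2 lower, with the median at -0.19. Among the abundant genes of the list, foxf2b and pdgfd did not pass the rule. The forkhead gene foxf2b was at 12.9 FPKM in PV and 11.6 FPKM in PG, and the ligand gene pdgfd at 10.97 FPKM in PV and 6.95 FPKM in PG. The receptor gene pdgfra, which marks stromal and mesenchymal cells, was at 4.27 FPKM in pre-vitellogenic and 0.255 FPKM in primary growth follicles, a difference of 2.07, above that of pdgfrb. The ligand gene pdgfc was at 3.503 FPKM in PV and 0.474 FPKM in PG, and notch3, a receptor of mural cells, was at 1.26 FPKM in PV and 0.129 FPKM in PG, just past the mark with a difference of 1.00. The lower genes were rgs5b, a regulator of G protein signalling (3.84 FPKM in PV and 12.5 FPKM in PG, difference -1.48), and the ligand gene pdgfab (0.511 FPKM in PV and 2.06 FPKM in PG, difference -1.02). The rgs5b relative rgs5a, on the pericyte list like rgs5b, went the other way, at 0.918 FPKM in PV and 0.122 FPKM in PG. The adhesion gene mcamb was at 1.40 FPKM in PV and 0.295 FPKM in PG, a difference of 0.89. The pericyte genes kcnj8 (0.129 FPKM in PV and 0.158 FPKM in PG), abcc9 (0.0896 FPKM in PV and 0.0174 FPKM in PG) and cspg4 (0.285 FPKM in PV and 0.268 FPKM in PG) stayed under 1 FPKM. The gene pdgfba for the ligand PDGF-B, which recruits pericytes to vessels, was listed at 0 in both libraries, and pdgfbb was at 0.0867 FPKM in PV and 0.0806 FPKM in PG.

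**Figure D3:**
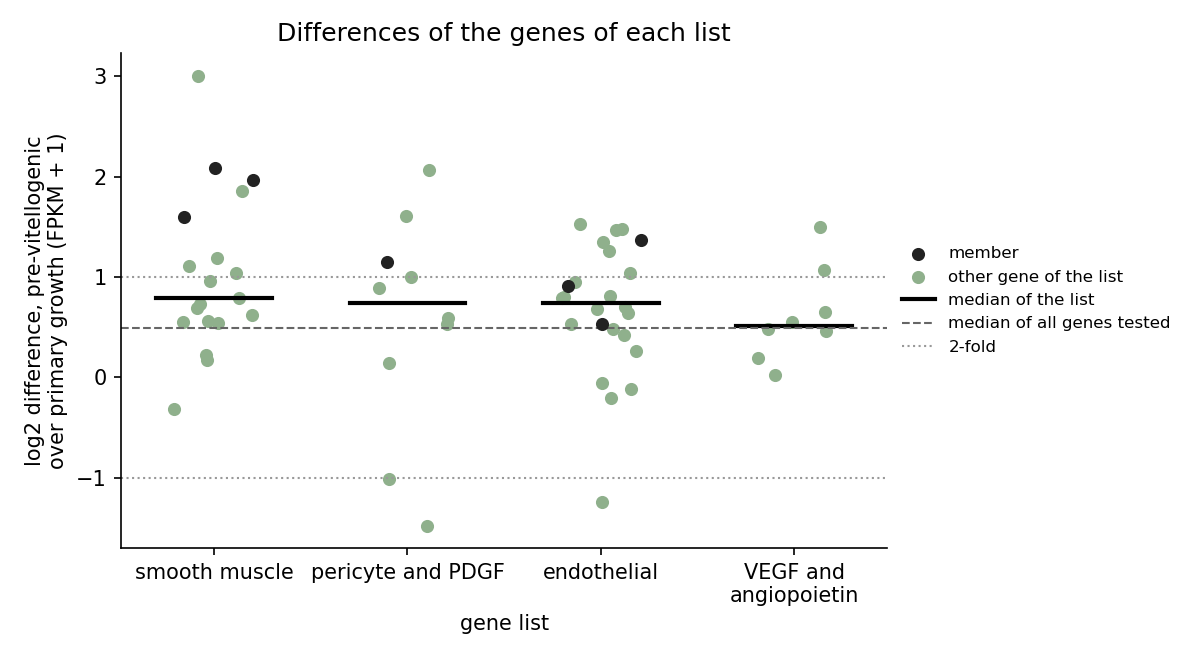
Difference (vertical axis, log2 of pre-vitellogenic over primary growth) of each gene that reached 1 FPKM in either library, by list, with members in black. The medians of the lists, 0.79, 0.74, 0.75 and 0.52, lie at or somewhat above the median of all genes tested, 0.50 (dashed), and in the smooth muscle list only smtnb lies above acta2 and tagln.

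The endothelial list held 56 genes, of which 52 were in the table and 24 reached 1 FPKM. Of these, 7 (29.2%) were called higher and 1 lower (median 0.75), so that the share of higher genes was close to that of all genes tested. Without the members it was 6 of 21. The 6 were ephb4a, a receptor of venous endothelium (3.10 FPKM in PV and 0.416 FPKM in PG, difference 1.53), hey2, a Notch target of arteries (10.6 FPKM in PV and 3.17 FPKM in PG, difference 1.48), tbx20 (1.47), plvapb of endothelial diaphragms (1.35), the chemokine receptor gene cxcr4a (6.20 FPKM in PV and 2.01 FPKM in PG, difference 1.26) and the sphingosine phosphate receptor gene s1pr1 (1.04). The lower gene was vwf, of the von Willebrand factor that binds platelets, at 0.194 FPKM in PV and 1.82 FPKM in PG. The most abundant gene of the list, ptprb, a phosphatase that acts on VE-cadherin, was at 15.7 FPKM in PV and 10.5 FPKM in PG, and the scavenger receptor gene stab2 at 6.75 FPKM in PV and 7.41 FPKM in PG. With the length bin median subtracted, 3 genes of the list were higher (hey2, cxcr4a and plvapb) and 3 lower (flt4, stab2 and vwf). Of all gene names tested, 12.1% were higher by that step.

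Ligands of these receptors were measured in the same libraries. Of 23 genes for VEGF, angiopoietins, their co-receptors and the hypoxia pathway, 21 were in the table and 8 reached 1 FPKM, with 2 higher (25%, against 29.1% of all genes tested), 0 lower and a median of 0.52. With the length bin median subtracted it was 1 higher (against 12.1% of all gene names) and 1 lower, with a median of 0.02. The VEGF gene vegfaa, whose product binds kdrl, was at 5.64 FPKM in pre-vitellogenic and 1.35 FPKM in primary growth follicles, with upper bounds of 13.3 in PV and 3.15 in PG, a difference of 1.501. With the length bin median subtracted it was 1.06, still past the mark. The co-receptor gene nrp2a was at 1.38 FPKM in PV and 0.130 FPKM in PG. Angiopoietin genes were under 1 FPKM and did not share a direction. Higher in PV were angpt1 (0.621 FPKM in PV and 0.191 FPKM in PG) and angpt2a (0.653 FPKM in PV and 0.129 FPKM in PG). Lower were angpt2b (0.0303 FPKM in PV and 0.0730 FPKM in PG) and angpt4 (0.177 FPKM in PV and 0.302 FPKM in PG). Of the other VEGF genes, all under 1 FPKM, vegfab and vegfba were higher in PV by value and vegfc and vegfd lower. The gene vegfbb was listed at 0 in both libraries. The oxygen-sensing genes did not pass the rule. Of these, hif1aa was at 1.55 FPKM in PV and 0.622 FPKM in PG (a 2.50-fold ratio, difference 0.65), hif1ab at 29.7 FPKM in PV and 21.3 FPKM in PG, epas1b at 9.20 FPKM in PV and 5.94 FPKM in PG, and vhl at 30.5 FPKM in PV and 29.96 FPKM in PG.

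Genes nearest to a member were taken from the 3 lists of smooth muscle, pericyte and endothelial genes by the distance of log2(FPKM + 1) over the 2 libraries. Nearest to acta2 were myl9b (0.45), hey2 (0.52) and smtnb (0.77), and nearest to kdrl were srfa (0.28), pdgfc (0.47) and dusp5 (0.54). Such a distance over only 2 libraries measures alike level more than alike pattern.

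Markers of other cells that follicle samples could hold gave the following values. Of 11 granulosa and theca markers, 7 reached 1 FPKM, and 6 of these were called higher (85.7%, against 29.1% of all genes tested) and 0 lower. Their median difference was 1.501. Of these markers amh, fshr, gsdf, nr5a1a and wt1a reached 1 FPKM in PV only. Among all gene names that did likewise, 56.0% were called higher, so the count is a description. After centring 5 of the 7 markers were higher (against 15.2% of all gene names), and 4 with the length bin median subtracted (against 12.1%). Among them inha was at 7.31 FPKM in PV and 1.25 FPKM in PG and gsdf at 4.56 FPKM in PV and 0.963 FPKM in PG, with fshr and nr5a1a listed at 0 in primary growth follicles. The summed level of the list was 69.5 FPKM in pre-vitellogenic and 57.1 FPKM in primary growth follicles, most of it cyp17a1 at 48.3 FPKM in PV and 54.1 FPKM in PG. Of 13 stroma and fibroblast markers 9 reached 1 FPKM, and 2 of these were called higher (22.2%, against 29.1% of all genes tested) and 0 lower. The 2 were col1a1a (2.15 FPKM in PV and 0.312 FPKM in PG) and dcn (2.73 FPKM in PV and 0.436 FPKM in PG). After centring 0 were higher, as with the length bin median subtracted, where the median was -0.45. The gene tcf21 was at 0.942 FPKM in PV and 2.22 FPKM in PG. The list summed to 47.7 FPKM in PV and 37.7 FPKM in PG, with lum listed at 0 in both. Whether the somatic share differed between the samples, and what part it has in the vessel genes, was not tested.

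The 9 erythrocyte markers summed to 62.5 FPKM in pre-vitellogenic and 67.2 FPKM in primary growth follicles, most of it hbaa1 at 51.6 FPKM in PV and 55.1 FPKM in PG. Only 3 of the 9 reached 1 FPKM, of which none was called higher and 1, hbae3, lower, and hbae1 was listed at 0 in both libraries. Of those under 1 FPKM, alas2 was at 0.744 FPKM in PV and 0.0347 FPKM in PG, slc4a1a at 0.592 FPKM in PV and 0.287 FPKM in PG, and hbba2 at 0.732 FPKM in PV and listed at 0 in PG. The 9 leukocyte markers summed to 26.7 FPKM in PV and 18.3 FPKM in PG. Most of it was cd74a, at 21.7 FPKM in PV and 11.6 FPKM in PG. By value 6 were higher in PV and 3 lower. Only 5 of the 9 reached 1 FPKM, of which 0 were called higher and 1, lyz, lower. Short of the mark was coro1a (0.748 FPKM in PV and 2.28 FPKM in PG, difference -0.91). None of 3 thrombocyte markers reached 1 FPKM, and 2, itga2b and gp1bb, were listed at 0 in both. The 10 skeletal muscle markers summed to 6.90 FPKM in pre-vitellogenic and 5.84 FPKM in primary growth follicles. Only 3 of them reached 1 FPKM and 0 passed the rule, and mylpfa, tnnt3b, pvalb1 and pvalb2 were listed at 0 in both libraries. Of all gene names tested, 29.1% were called higher and 6.53% lower.

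The separate small RNA libraries hold miRNAs known from the same cells. The miR-143 and miR-145 pair comes from 1 locus and is abundant in smooth muscle, and miR-126 lies within an endothelial gene. Which cells of the follicle samples made these miRNAs was not tested. The deposited mature sequences are shown because miRNAs known from both vessel layers are among the 118 listed. They are given 5′ to 3′ with T for U and with the seed, bases 2 to 8, in capitals.
miR-143: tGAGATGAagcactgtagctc
miR-145-5p: gTCCAGTTttcccaggaatccc
miR-126a-3p: tCGTACCGtgagtaataatgc
The 3 seeds differ from each other.

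The miRNA miR-143 was at 2596 RPM (reads scaled to the total of the library) in pre-vitellogenic and 185.9 RPM in primary growth follicles. This is a 14.0-fold ratio with an exact 95% interval of 13.4 to 14.6 that covers counting error only. The sum of all listed miRNAs was also higher, 31842 RPM in PV against 4600 RPM in PG, a 6.92-fold ratio, and the median difference of the 27 miRNAs at 100 RPM or more was 2.70 on a log2 scale after adding 10 RPM, or 3.08 after adding 1 RPM. Relative to these medians miR-143 was higher by 1.03 with 10 RPM and by 0.71 with 1 RPM. The arms of miR-145 were at 8.30 RPM (5p, 158 reads) and 49.7 RPM (3p, 946 reads) in pre-vitellogenic follicles and listed at 0 in primary growth follicles, so no fold is given, and their difference depends on the RPM added: 0.87 (5p) and 2.58 (3p) with 10 RPM, 3.22 (5p) and 5.66 (3p) with 1 RPM. The endothelial miR-126a-3p was at 85.9 RPM in pre-vitellogenic and 13.8 RPM in primary growth follicles, a 6.24-fold ratio (5.35 to 7.31), close to that of the sum of all listed miRNAs. Its difference was 2.01 with 10 RPM added and 2.56 with 1 RPM, which is -0.69 and -0.53 relative to the median. Its 5p arm, of the same sequence as that of miR-126b, was listed at 0 in pre-vitellogenic and was at 4.41 RPM in primary growth follicles.

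**Figure D4:**
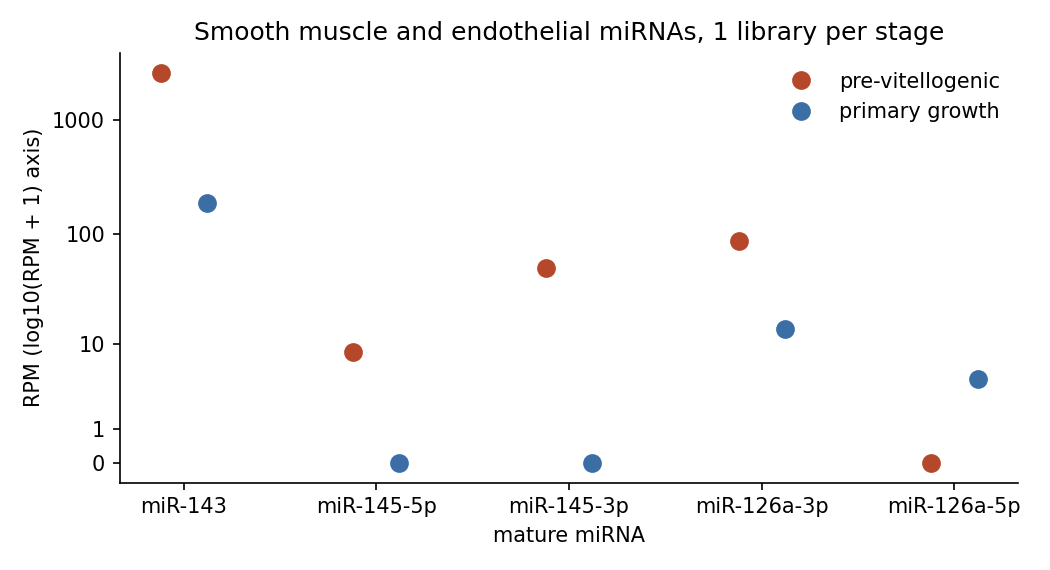
Level of miRNAs known from smooth muscle (miR-143 and both arms of miR-145) and from endothelium (both arms of miR-126a). The pre-vitellogenic library is in red and the primary growth library in blue, on a log10(RPM + 1) axis. miR-143 stands at 2596 RPM in PV and 185.9 RPM in PG, miR-126a-3p is higher in PV as well, and both arms of miR-145 are at 0 in PG.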

How the data were processed

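The authors deposited FPKM for each transcript with bounds below and above it, from 1 library per stage. Tools and build named in the submitters' processing notes, with no step given, are Cufflinks 2.2.1, TopHat2 2.0.11 and Zv9, and the depth of the mRNA libraries is unknown: low values did not fall on steps. The stage of a library was taken from its cell type label, because the titles call all 4 PG. The 56711 transcript rows were summed by gene name, bounds included, and rows without a name were kept by gene ID, using Python 3.11.15 with pandas 2.3.3. A gene's length is the mean over its transcripts, weighted by FPKM. List genes missing by name were sought by Ensembl ID or RefSeq synonym (GRCz12tu table), names only.

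The small RNA header says RPKM, but the deposited values step by 0.0525 and 0.0761 whatever the length (tolerance 0.01 steps), so they were read as RPM of 19043107 reads in pre-vitellogenic and 13147324 reads in primary growth follicles. The lowest listed value is 6 reads in either library, so 0 may mean fewer. Intervals of ratios are exact (Clopper-Pearson) and cover counting error only.

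The members and lists were chosen with earlier results of these data known. Named were all members, their relatives, the 4 most abundant and 2 most different genes of each list, and the genes nearest to acta2 and kdrl; the relative actg1 was not matched. Named after their values were seen were fbn1, tpm2, cnn1a, cnn1b, myl9a, cald1a, mcamb, hif1aa, alas2, slc4a1a, hbba2, desma, elna, notch3, pdgfab, rgs5a, kcnj8, abcc9, cspg4, pdgfba, pdgfbb, tbx20, plvapb, s1pr1, vwf, angpt1 and angpt2a. So were angpt2b, angpt4, vegfab, vegfba, vegfbb, vegfc, vegfd, desmb, elnb, smtna and fhl1a. Single markers of other cell types were named outside this rule, with their values known. The summing, fold rule and length bins were tested on simulated data. Alternatives were other pseudocounts, filters, scalings, a length correction and the highest transcript only.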

Additional observations from a re-analysis of the deposited data

How the results depend on the processing

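The genes acta2 and tagln were 2-fold higher under all 10 alternatives, with differences of 1.38 to 2.39 and 1.12 to 2.43. Of the others, myh11a passed under 7, kdrl and pdgfrb under 6 each, fli1a under 3, and cdh5 and tie1 under none. Of the 8 genes 5 were called as deposited, 2 with a pseudocount of 5 FPKM, 3 after centring and 2 with the length bin median subtracted. With a minimum of 5 FPKM only 2 genes were left, and both were called. The count was 6 with a pseudocount of 0.1 FPKM, with the highest transcript only and at the same FPKM total without mitochondrially encoded genes. Of all gene names, 5211 of 14480, 4138 of 14204 and 5698 of 14308 were called higher under these, in that order. As deposited it was 4207 of 14480. The median of the members, 1.37 as deposited, was 0.56 with the pseudocount of 5, 0.96 after centring and 0.33 with length subtracted. With the pseudocount of 0.1 it was 2.39. With the length bin median subtracted tie1 turned to -1.12. It was under 1 FPKM at both stages, so the added 1 FPKM held its difference at 0.07, and the bin median subtracted was 1.20. Relative to the median miRNA with 10 RPM added, miR-126a-3p turned to -0.69, and with 1 RPM, an alternative added after seeing the data, to -0.53. On the same scale with 10 RPM added, miR-145-3p and miR-145-5p were at -0.12 and -1.83. Both are listed at 0 in primary growth follicles, so their values depend on the RPM added. With 1 RPM added and no centring they were 5.66 and 3.22, where the median miRNA was at 3.08.

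The smooth muscle list (8 higher as deposited) had 4 with the pseudocount of 5, 5 with the minimum of 5, 5 after centring, 4 with length subtracted and 5 with the highest transcript only. The pericyte list (4) had 0, 0, 2 and 2 under the first 4 of these, the endothelial list (7) 0, 2, 3 and 3 and the VEGF list (2) 0, 1, 1 and 1, with 1 by the highest transcript. The minimum of 5 FPKM left only 12 smooth muscle, 3 pericyte, 4 endothelial and 4 VEGF genes to call. A pseudocount of 0.1 FPKM gave 14 endothelial genes and 5211 of all 14480 gene names, against 7 and 4207 as deposited. Of all genes (4207 higher, 945 lower) 1960 and 495 were called with the pseudocount of 5, 2194 and 1913 after centring, and 1749 higher with length subtracted. The lower count was 581 after rescaling to the same FPKM total, 505 with mitochondrially encoded genes left out as well and 1649 by the 75th percentile. These scalings set the median of all genes tested at 0.72, 0.78 and 0.18. No paired analysis was possible because each stage has 1 library of each kind. With 1 library per stage none could be left out, and the wide bounds limit every value near 1 FPKM.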

Other observations

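Several transcription factors of early endothelium were low at both stages. The 5 described below did not pass the 2-fold rule, unlike hey2 and tbx20, and all 5 were higher in PV by value. Others of the list did not all share this direction. The gene sox17 was at 0.270 FPKM in PV and 0.316 FPKM in PG, gata2a at 0.151 FPKM in both, and tal1 at 0.166 FPKM in PV and 0.0972 FPKM in PG. The gene etv2, which starts the endothelial and blood lineages in embryos, was at 2.44 FPKM in pre-vitellogenic and 0.965 FPKM in primary growth follicles, a difference of 0.81. The SOX gene sox7 was at 2.08 FPKM in PV and 0.778 FPKM in PG (difference 0.79), and its relative sox18 at 0.920 FPKM in PV and 0.636 FPKM in PG. The flow-responsive gene klf2b was at 1.20 FPKM in PV and 0.142 FPKM in PG, a difference of 0.95, and lmo2 at 1.27 FPKM in PV and 0.890 FPKM in PG. The tight junction genes cldn5a and cldn5b were at 1.06 FPKM in PV and 0.185 FPKM in PG and at 2.62 FPKM in PV and 1.59 FPKM in PG.

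These values are as deposited, and with the median of the length bin subtracted etv2 was at 0.48, sox7 at 0.15, cldn5a at 0.47 and cldn5b at 0.16, while klf2b (-0.12), lmo2 (-0.18) and sox18 (-0.10) turned negative. They were chosen for description after their values were seen.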
